A study of Ovis aries with 16 samples.

Results

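The ubiquitin ligase and protease families measured in sheep testis comprised 34 genes of the 25197 for which CPM values (reads on a gene, scaled to the same total of reads on genes in each library) were deposited. Members were chosen by symbol, as the genes whose symbols start with RNF, TRIM, FBXO, FBXW, FBXL, USP, UBE2, UBE3, KLHL, CUL, ASB or MARCH. A symbol was paired with an identifier for 1763 genes, in the study's supplementary lists of differentially expressed mRNAs and of miRNA-mRNA pairs. Those lists came from the comparison of the 2 diets in these same libraries, so the diet differences of the members below describe the genes that were listed. Counts of members past the study's criteria are given as part of that description and are no independent test. The 34 members were 7 RNF, 1 TRIM, 4 FBXO, 1 FBXW, 3 FBXL, 7 USP, 6 UBE2, 2 KLHL, 2 CUL and 1 ASB genes. UBE3 and MARCH gave 0 members, although 1 listed symbol had been turned into a March date by a spreadsheet and was not counted, and 245 rows of the longer list were not read here. A member that both lists left out could not be found by its symbol.

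RNA was sequenced from the testes of 16 sexually mature Merino male sheep, 8 well-fed and 8 underfed, with 1 library per sheep. Feeding lasted 65 days. Well-fed sheep were meant to gain 10% of their body mass, and underfed sheep to lose 10%. Both diets were feed allowances of oaten chaff and lupin grain given to sheep in individual pens, and neither carried a drug or a genetic change. Tissue came from the top, middle and bottom of the right testis, so each library is a mixture of germ cells, Sertoli cells and interstitial cells. In such bulk RNA, fewer cells of a type and less RNA per cell cannot be told apart. Sheep are named here by diet and by the replicate number in the sample labels.

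Ubiquitin is a small protein that is joined to other proteins by a relay of enzymes. An E1 enzyme activates it, an E2 conjugating enzyme (the UBE2 family) carries it, and an E3 ligase brings the loaded E2 to the substrate, which is then degraded by the proteasome or given another fate. RING and TRIM proteins are E3 ligases that act alone or in pairs, cullins are scaffolds that hold F-box, SOCS-box or BTB-Kelch adaptors as substrate receptors, and the ubiquitin-specific proteases (USP) remove the tag again. The testis is rich in these enzymes, because histones and much of the cytoplasm are discarded while round spermatids become spermatozoa.

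Reads on genes numbered 9552149 to 18230076 per well-fed and 7646547 to 14690953 per underfed animal. The medians were 13997249.5 and 10883403.5, so depth differed with diet, and its part in the diet differences was not tested. At these depths 3 reads corresponded to 0.165 to 0.392 CPM, a limit that covers counting error only, and the lowest read number of any member in any library was 16, for UBE2O in well-fed sheep 5. All 34 members passed the filter on low values, which asked for more than 5 CPM in 8 or more libraries and left 11148 genes. The first principal component of these genes held 59.6% of the variance. Fold changes are given as log2 of the low diet over the high diet, estimated with limma on log2(CPM divided by the TMM factor + 1), with a standard error over 8 sheep per diet. They understate the change of low genes.

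In underfed sheep 20 of the 34 members had lower and 14 had higher mean levels than in well-fed sheep. The log2 fold changes ran from -1.34 (UBE2U) to -0.64 (KLHL24) among the lower members, with a median of -0.86, and from 0.62 (FBXO9) to 1.51 (USP22) among the higher members, with a median of 1.03. Over all genes tested the median was 0.00, and 50.2% of genes lay above 0. With an adjusted p-value under 0.1 and a ratio of mean CPM above 1.5, 26 of the 34 members were past both criteria, beside 16.1% of all genes, from which nothing follows because the members had been listed on this contrast. Among the 14 higher members 13 were past both criteria, beside 21.2% of all genes with a log2 fold change above 0, and among the 20 lower members 13, beside 10.9% of all genes below 0. Outside the criteria were 8 members. KLHL24, UBE2D2, UBE2K, FBXL5, UBE2N, CUL5 and USP50 had a ratio of mean CPM of 1.34 to 1.48 in favour of well-fed sheep. UBE2O had a ratio of 2.36 but an adjusted p of 0.11, and USP50 had one of 0.12 (limma). The ratio was taken on CPM without TMM factors, whereas fold changes and p-values used CPM divided by them. By the adjusted p alone 32 of the 34 members passed, beside 2388 of the 11148 genes, 1194 in each direction. The levels of the 8 well-fed and the 8 underfed sheep overlapped for each of the 34 members, whereas 0.798% of all genes tested had CPM values that did not overlap between diets, 0.762% with every underfed sheep above and 0.0359% with every underfed sheep below. The count of members past both criteria depended on single sheep, and was 10 without underfed sheep 6.

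**Figure D1:**
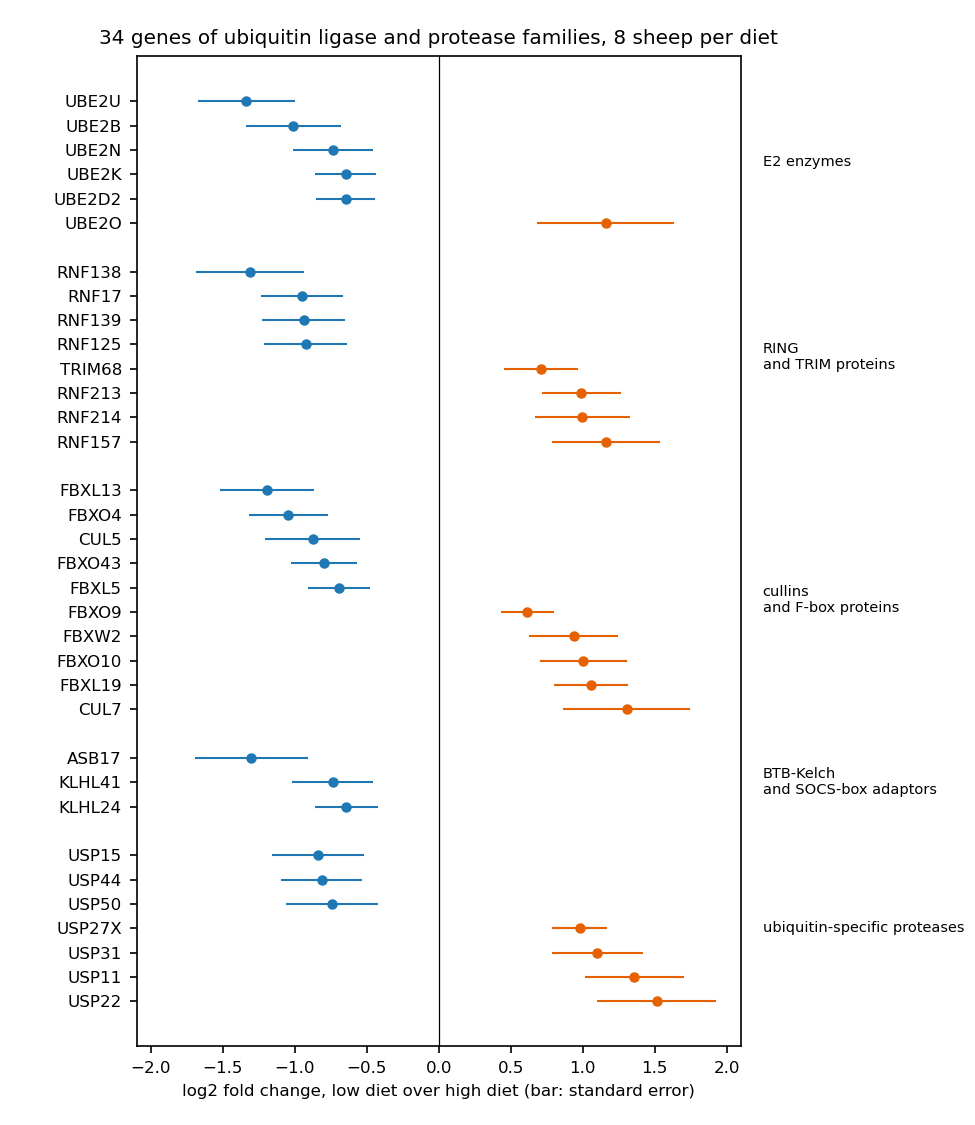
Log2 fold change (low over high diet) of the 34 members, grouped by role in the ubiquitin pathway, with points for the estimate and bars for the standard error over 8 sheep per diet. The E2 enzymes lie below 0 except UBE2O, the BTB-Kelch and SOCS-box adaptors all lie below 0, and the other roles hold members on both sides, from UBE2U at -1.34 to USP22 at 1.51.

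The E2 enzymes had 5 lower members and 1 higher member. UBE2U, a little-studied E2 enzyme, ranged from 161 to 541 CPM with a median of 299 in well-fed sheep, and from 46.6 to 255 CPM with a median of 149 in underfed sheep, a log2 fold change of -1.34 ± 0.34 (SE). UBE2B, the RAD6 homologue without which male mice are sterile, ranged from 100 to 229 CPM (median 184) in well-fed and from 35.8 to 199 CPM (median 104) in underfed sheep, a log2 fold change of -1.01 ± 0.33. For both genes 4 underfed sheep lay below every well-fed sheep, and the other 4 lay within the well-fed range. UBE2N, which builds chains used in DNA repair and signalling, ranged from 150 to 387 CPM (median 311) in well-fed and from 85.7 to 283 CPM (median 206) in underfed sheep, with a log2 fold change of -0.74 ± 0.28, and 3 underfed sheep lay below all well-fed sheep. The log2 fold changes of UBE2K and of UBE2D2, an E2 enzyme that works with many ligases, were -0.65 ± 0.21 and -0.65 ± 0.20.

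UBE2O, a large enzyme that combines E2 and E3 activity, ran the other way and varied most among well-fed sheep. Its level ranged from 0.962 to 21.4 CPM with a median of 8.35 in well-fed sheep, and from 6.49 to 48.5 CPM with a median of 16.5 in underfed sheep, a log2 fold change of 1.16 ± 0.48. The highest well-fed sheep exceeded the lowest by 22.2 times. Of the underfed sheep, 3 lay above all well-fed sheep, while underfed sheep 1 was the lowest of its diet.

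The RING and TRIM proteins were split evenly, with 4 lower and 4 higher members. RNF138, a ligase of the repair of broken DNA ends, ranged from 167 to 410 CPM (median 321) in well-fed and from 36.0 to 300 CPM (median 157) in underfed sheep, a log2 fold change of -1.31 ± 0.38. RNF17, a germ cell protein with Tudor domains that male mice need to complete spermatid development, ranged from 585 to 1363 CPM (median 894) in well-fed and from 242 to 945 CPM (median 571) in underfed sheep, a log2 fold change of -0.95 ± 0.28. RNF139, a sterol-responsive ligase of the endoplasmic reticulum, ranged from 424 to 790 CPM (median 547) in well-fed and from 110 to 607 CPM (median 368) in underfed sheep, a log2 fold change of -0.94 ± 0.29. Underfed sheep lay below the whole well-fed range in 4 cases for RNF138 and RNF17 and in 5 for RNF139, and underfed sheep 1 was the highest of its diet for all of them. RNF125, a ligase that restrains antiviral signalling, is the neighbouring protein-coding gene of RNF138 in the RefSeq annotation of the sheep genome. It was added after its values were seen, and ranged from 18.9 to 52.0 CPM (median 32.2) in well-fed and from 7.49 to 28.7 CPM (median 18.8) in underfed sheep, a log2 fold change of -0.92 ± 0.29. RNF138 and RNF125 had the same lowest and highest sheep in both diets (well-fed sheep 7 and 8, underfed sheep 6 and 1), as had ASB17, FBXL13, UBE2B, UBE2U and USP44, 7 members in all.

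The higher members of this role were RNF157, RNF214, RNF213 and TRIM68. RNF157, a ligase best known from neurons, ranged from 1.38 to 13.7 CPM (median 4.41) in well-fed and from 4.13 to 24.2 CPM (median 12.5) in underfed sheep, a log2 fold change of 1.16 ± 0.38. RNF214 ranged from 4.22 to 30.8 CPM (median 11.3) in well-fed and from 14.4 to 56.4 CPM (median 26.7) in underfed sheep, a log2 fold change of 1.00 ± 0.33. RNF213, a very large ligase with an ATPase core that is linked to moyamoya disease of the brain arteries, ranged from 116 to 503 CPM (median 279) in well-fed and from 409 to 1141 CPM (median 552) in underfed sheep, a log2 fold change of 0.99 ± 0.27. For RNF213, 6 well-fed sheep lay below all underfed sheep, and 4 underfed sheep lay above all well-fed sheep. TRIM68, described as a coactivator of the androgen receptor, had a log2 fold change of 0.71 ± 0.26.

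**Figure D2:**
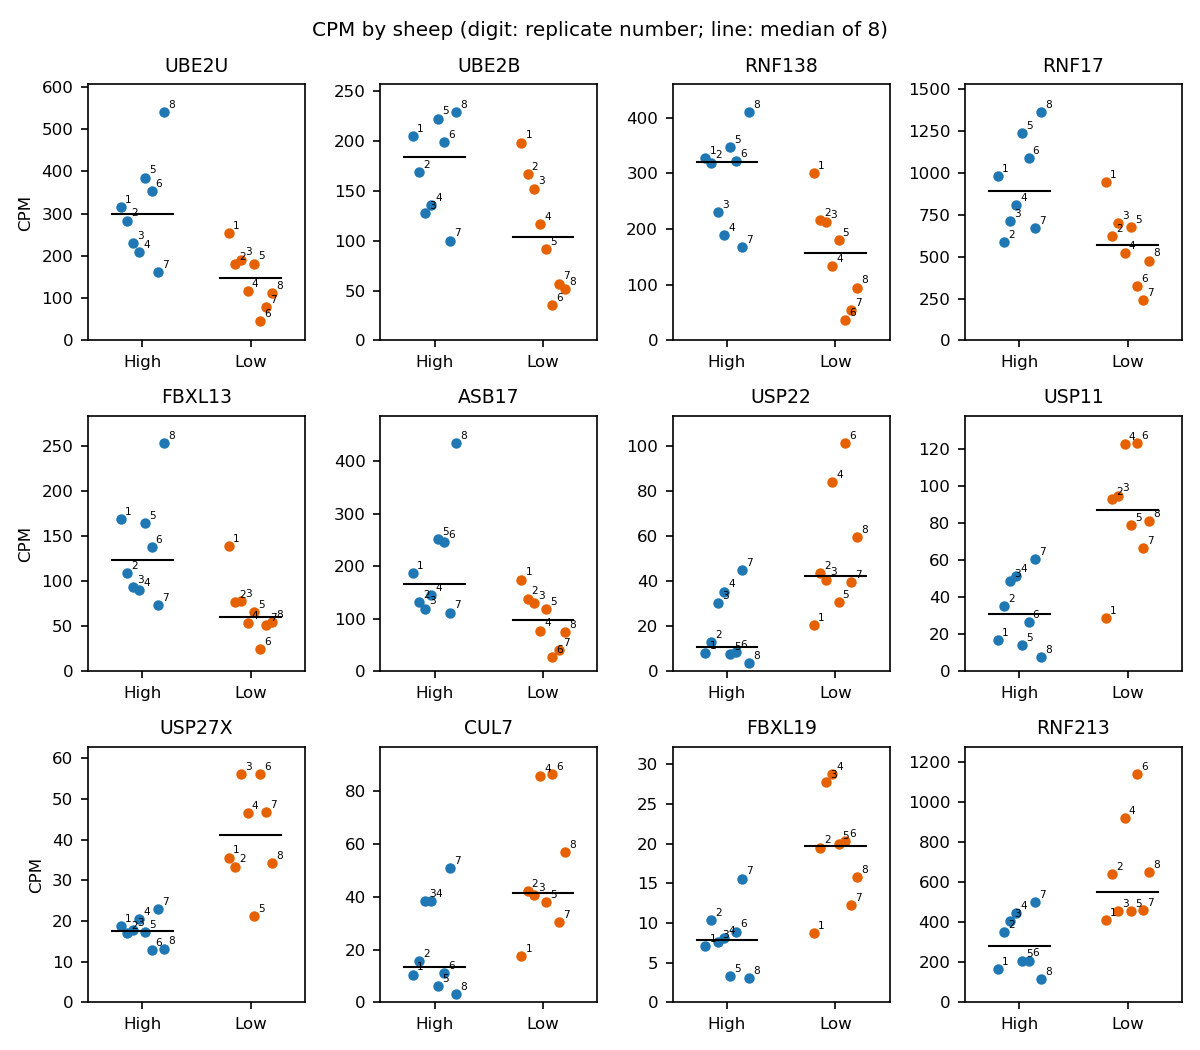
CPM (linear axes from 0) of 12 members in each of the 16 sheep, high diet in blue and low diet in orange, with 1 point per sheep marked by its replicate number and a line at the median of 8. The diets overlap in every panel, and underfed sheep 1 lies nearest to the well-fed sheep in most panels.

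The cullin scaffolds and F-box receptors had 5 lower and 5 higher members, and the 2 cullins lay on opposite sides. CUL5, the scaffold that holds SOCS-box receptors, ranged from 56.4 to 144 CPM (median 98.0) in well-fed and from 16.3 to 99.4 CPM (median 78.4) in underfed sheep, a log2 fold change of -0.88 ± 0.33. CUL7, the scaffold of a ligase that is mutated in a human growth disorder, ranged from 3.02 to 51.0 CPM (median 13.5) in well-fed and from 17.6 to 86.7 CPM (median 41.5) in underfed sheep, a log2 fold change of 1.31 ± 0.44. Underfed sheep 7 was the lowest for CUL5, and well-fed sheep 8 was both the highest for CUL5 and the lowest for CUL7.

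Among the F-box proteins, FBXL13, part of the regulatory complex of the sperm tail axoneme, ranged from 73.2 to 253 CPM (median 124) in well-fed and from 25.0 to 139 CPM (median 60.4) in underfed sheep, a log2 fold change of -1.20 ± 0.33. FBXO4, a receptor for cyclin D1, ranged from 15.4 to 33.6 CPM (median 22.5) in well-fed and from 5.59 to 22.6 CPM (median 13.4) in underfed sheep, a log2 fold change of -1.05 ± 0.28. For both, 5 underfed sheep lay below every well-fed sheep. FBXO43, an inhibitor of the anaphase-promoting complex that is needed in meiosis, had a log2 fold change of -0.80 ± 0.23, and FBXL5, the iron-sensing receptor for IRP2, had one of -0.69 ± 0.21.

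FBXL19, an F-box protein that binds CpG islands, ranged from 3.02 to 15.6 CPM (median 7.85) in well-fed and from 8.69 to 28.8 CPM (median 19.8) in underfed sheep, a log2 fold change of 1.06 ± 0.26. FBXO10, a receptor for the survival protein BCL2, ranged from 1.81 to 11.4 CPM (median 5.14) in well-fed and from 6.93 to 24.1 CPM (median 13.4) in underfed sheep, a log2 fold change of 1.01 ± 0.30. FBXO9, an F-box protein with a tetratricopeptide repeat, ranged from 7.73 to 24.2 CPM (median 17.5) in well-fed and from 16.4 to 40.7 CPM (median 33.8) in underfed sheep, a log2 fold change of 0.62 ± 0.19. Of the underfed sheep, 6 for FBXL19, 5 for FBXO10 and 7 for FBXO9 lay above all well-fed sheep, and underfed sheep 1 was the lowest of its diet for each of these genes. FBXW2 had a log2 fold change of 0.94 ± 0.31.

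The BTB-Kelch and SOCS-box adaptors were all lower in underfed sheep, 3 of 3. ASB17, a SOCS-box protein found mainly in the testis, ranged from 112 to 434 CPM (median 166) in well-fed and from 26.8 to 175 CPM (median 98.0) in underfed sheep, a log2 fold change of -1.30 ± 0.39. KLHL41, best known from skeletal muscle, ranged from 12.3 to 35.4 CPM (median 19.3) in well-fed and from 7.35 to 20.4 CPM (median 13.1) in underfed sheep, a log2 fold change of -0.74 ± 0.28. KLHL24, which controls keratin turnover in skin, ranged from 302 to 558 CPM (median 460) in well-fed and from 199 to 578 CPM (median 304) in underfed sheep, a log2 fold change of -0.64 ± 0.22. ASB17 and KLHL41 each had 4 underfed sheep below the well-fed range, as did KLHL24, for which underfed sheep 1 also lay above every well-fed sheep. In the rows that were read, KLHL24 was listed only among the miRNA-mRNA pairs, and the 245 rows not read may also hold it.

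The ubiquitin-specific proteases had 3 lower and 4 higher members. USP15, a protease of the TGF-beta pathway among others, ranged from 306 to 956 CPM (median 505) in well-fed and from 147 to 541 CPM (median 348) in underfed sheep, a log2 fold change of -0.84 ± 0.32. USP44, a regulator of the mitotic spindle checkpoint, ranged from 228 to 700 CPM (median 350) in well-fed and from 167 to 443 CPM (median 226) in underfed sheep, a log2 fold change of -0.81 ± 0.28. USP50 ranged from 274 to 919 CPM (median 514) in well-fed and from 166 to 596 CPM (median 357) in underfed sheep, a log2 fold change of -0.74 ± 0.32. Well-fed sheep 8 was the highest and underfed sheep 6 the lowest of its diet for all of USP15, USP44 and USP50.

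USP22, the deubiquitinating subunit of the SAGA chromatin complex, had the highest log2 fold change of the members. It ranged from 3.73 to 45.0 CPM (median 10.7) in well-fed and from 20.4 to 101 CPM (median 42.2) in underfed sheep, a log2 fold change of 1.51 ± 0.41, and 5 well-fed sheep lay below all underfed sheep. USP11, a protease linked to DNA repair, ranged from 7.62 to 60.4 CPM (median 31.1) in well-fed and from 28.7 to 123 CPM (median 86.9) in underfed sheep, a log2 fold change of 1.36 ± 0.34, and 7 of 8 underfed sheep lay above all well-fed sheep. USP31 ranged from 4.94 to 26.9 CPM (median 12.1) in well-fed and from 16.9 to 69.1 CPM (median 27.0) in underfed sheep, a log2 fold change of 1.10 ± 0.32.

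USP27X, a relative of USP22, was added after its values were seen. It ranged from 12.9 to 23.0 CPM with a median of 17.5 in well-fed sheep and from 21.1 to 56.1 CPM with a median of 41.1 in underfed sheep, a log2 fold change of 0.98 ± 0.19. Of the underfed sheep 7 lay above all well-fed sheep, and of the well-fed sheep 7 lay below all underfed sheep. USP27X was the only 1 of 34 members whose ratio between diets, 2.35, exceeded the ratio of the highest to the lowest well-fed sheep, 1.77. The other 13 higher members differed 3.12 to 22.2 times among well-fed sheep. Among underfed sheep the highest level of USP27X exceeded the lowest by 2.66 times, more than the ratio between diets. Against the underfed spread the ratio between diets was smaller for all 34 members. The share of all genes was not counted for either comparison.

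For 33 of the 34 members the ratio of mean CPM between diets was below the ratio of the highest to the lowest well-fed sheep. The latter is a range over 8 single sheep and the former compares 2 means, so these are unlike measures. The standard errors above give the uncertainty of the diet difference over sheep. They do not cover the choice of the members on this same contrast, which favours large estimates. Among well-fed sheep the highest level exceeded the lowest by a median of 5.91 times for the 14 higher members and 2.5 times for the 20 lower members. The medians of all genes tested with the same sign of log2 fold change were 3.80 and 2.24 times. Among underfed sheep the medians were 4.06 times for the higher and 3.75 times for the lower members, and 3.0 and 2.67 times for all genes.

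The same few sheep held the extremes, ranked here on the log2 scale after division by the TMM factors. On CPM the counts differ by a few members. RNF139 and KLHL24 had their highest well-fed CPM in sheep 1 and 5, and CUL5 and UBE2D2 their highest underfed CPM in sheep 3. Well-fed sheep 8 was the highest of its diet for 18 of the 20 lower members and the lowest for 9 of the 14 higher members, and over all genes of these directions it held those places for 55.5% and 44.9%. Well-fed sheep 7 was the lowest for 13 of the 20 lower members, beside 34.9% of genes, and the highest for 10 of the 14 higher members, beside 41.4%. Underfed sheep 1 was the highest of its diet for 17 of the 20 lower members, beside 38.2% of genes, and the lowest for 12 of the 14 higher members, beside 38.9%. Underfed sheep 6 was the lowest for 15 of the 20 lower members, beside 32.2% of genes, and sheep 7 for the other 5, beside 25.2%. The genes of the same direction had smaller diet differences than the members, with median log2 fold changes of 0.38 and -0.35, so these sets are unlike.

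**Figure D3:**
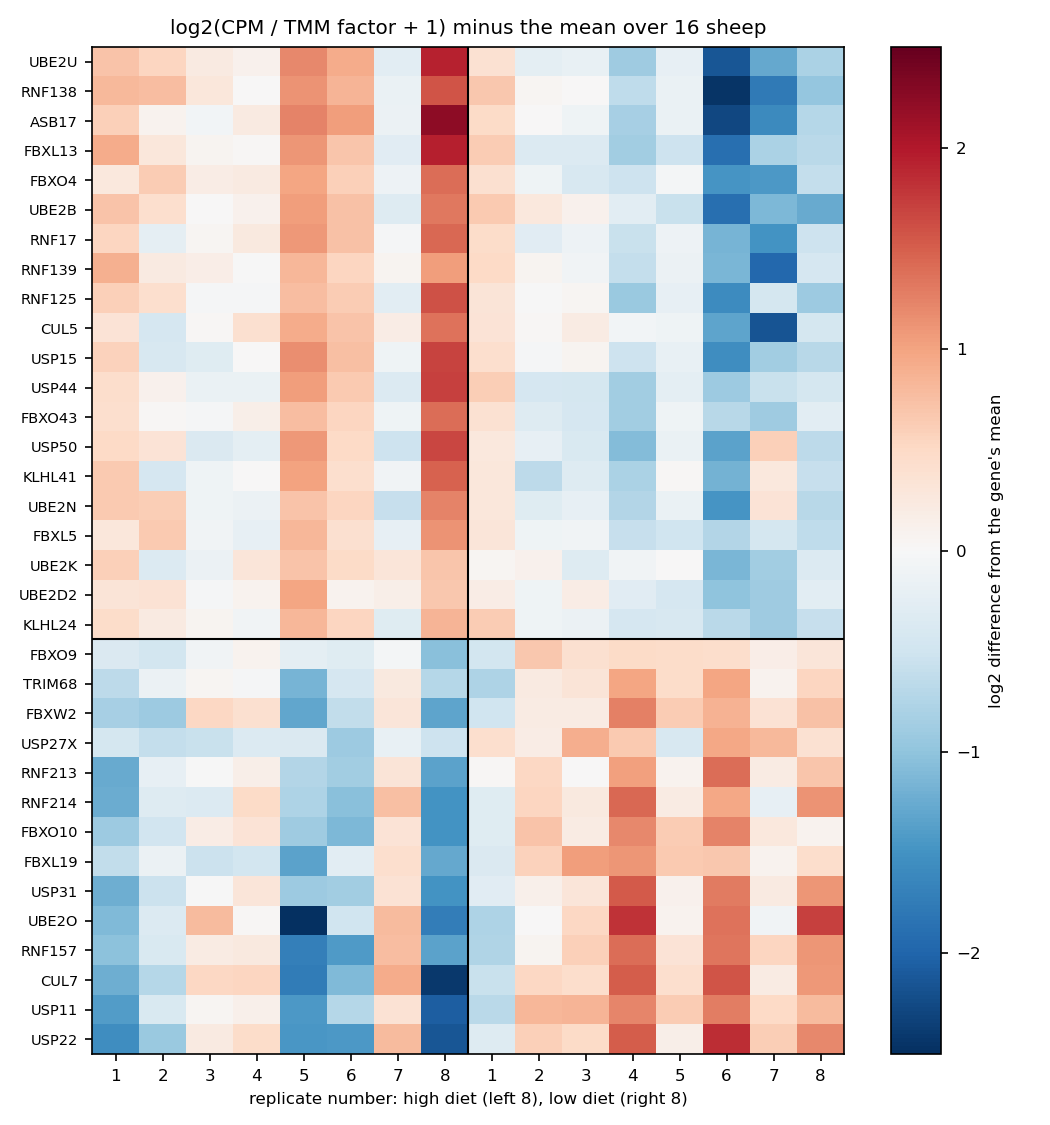
Log2 level of the 34 members (rows) in the 16 sheep (columns), each row centred on its mean over all sheep, with red for higher and blue for lower levels and the colour scale ending at 2.5 on either side. Black lines part the diets and the lower from the higher members. Well-fed sheep 8 and underfed sheep 6 carry opposite patterns, and underfed sheep 1 is red for the lower and mostly blue for the higher members, as well-fed sheep 8 is.

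Averaged over the members and centred on the 16 sheep, the 20 lower members stood at 1.42 on the log2 scale for well-fed sheep 8 and at -1.40 for underfed sheep 6. The 14 higher members stood at -1.46 and 1.16 in this pair of sheep. Underfed sheep 1 stood at 0.41 for the lower and -0.40 for the higher members, and was the only 1 of 8 underfed sheep above 0 for the former and below 0 for the latter. Underfed sheep 4 had the highest mean of the higher members, 1.22, and a mean of -0.62 for the lower members. Well-fed sheep 8 also had the deepest library and the smallest TMM factor, 0.736, beside factors of up to 1.13, and the part of depth in its pattern was not tested.

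Markers of testicular cell types also differed between diets. They could be matched only where the same supplementary lists gave a symbol, so they too were listed on the diet contrast. The summed level of 5 of 11 spermatogonium and spermatocyte markers (DDX4, HORMAD1, SPO11, SYCP1 and SYCP3) was 822 to 1804 CPM in well-fed and 378 to 1228 CPM in underfed sheep, and that of 4 of 14 spermatid markers (CATSPERB, SPACA1, SPATA4 and ZPBP) was 599 to 985 and 274 to 813 CPM. The summed level of 5 of 9 Sertoli cell markers (CLDN11, FSHR, GATA4, INHA and VIM) was 167 to 263 CPM in well-fed and 274 to 653 CPM in underfed sheep, without overlap. Of peritubular cell markers 2 of 4 (DES and MYH11) summed to 46.6 to 255 and 119 to 515 CPM, the Leydig cell marker STAR had 16 to 73.0 and 6.71 to 27.8 CPM, and the leukocyte marker PTPRC had 10.9 to 33.6 and 19.3 to 59.4 CPM. All 9 germ cell markers had log2 fold changes below 0 and all 5 Sertoli cell markers above 0, and 0 of the 18 matched markers was at 0 in any library. Well-fed sheep 8 had the highest germ cell and the lowest Sertoli cell sums, underfed sheep 6 the lowest germ cell sums, and underfed sheep 1 the highest germ cell and the lowest Sertoli cell sums of its diet. The other underfed sheep did not rank alike for Sertoli cell sums and higher members. Sheep 3 and 7 had 653 and 651 CPM, with higher members at -0.07 and -0.26 from their diet mean (log2). Sheep 4 and 6 had 537 and 556 CPM, with higher members at 0.69 and 0.63. The peritubular sums of sheep 4 and 6, 515 and 388 CPM, were the highest of the underfed sheep. Sheep 1 had the lowest, 119 CPM, with higher members at -0.93. Sheep 2 had 375 CPM, with higher members at -0.12. Among well-fed sheep, 4 and 7 had the highest peritubular sums (255 and 218 CPM), with higher members at 0.70 and 0.97. Well-fed sheep 8 had the lowest, 46.6 CPM, with higher members at -0.92. The part of cell composition in the levels of the 34 members was not tested. No marker of endothelial cells or erythrocytes was matched.

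**Figure D4:**
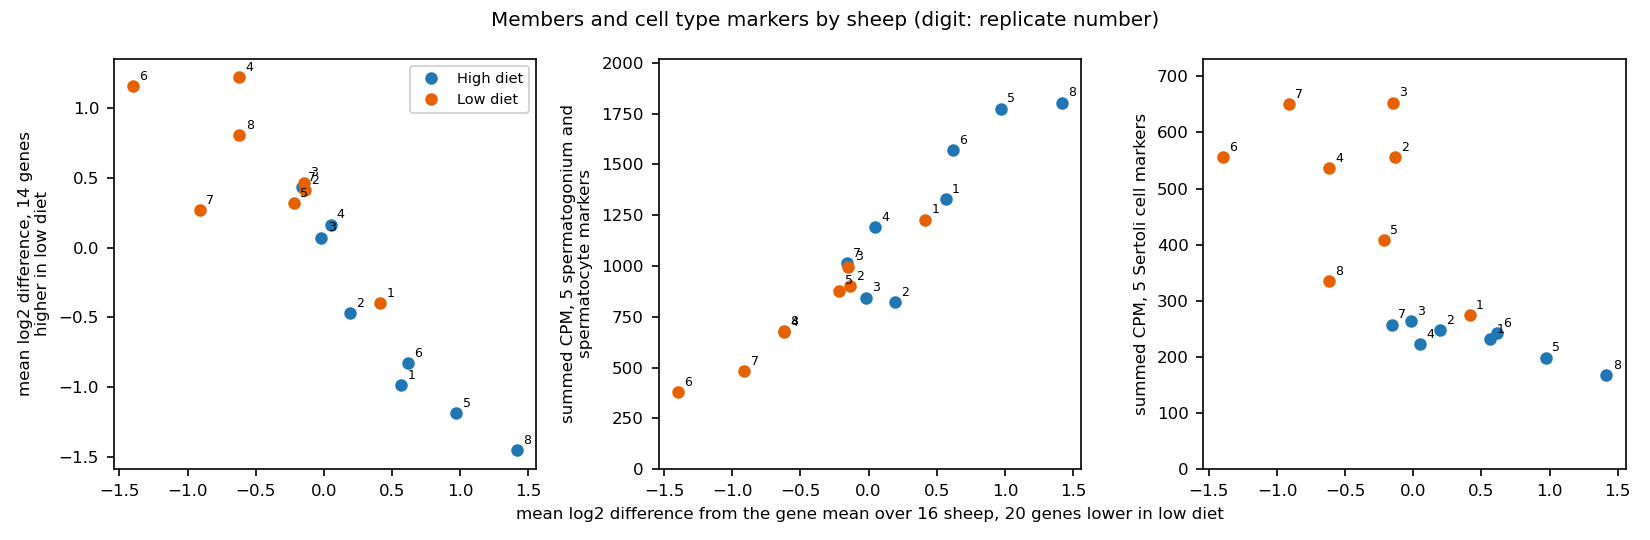
Mean log2 difference of the 20 lower members from their mean over 16 sheep (x axes), against that of the 14 higher members, the summed CPM of 5 spermatogonium and spermatocyte markers and the summed CPM of 5 Sertoli cell markers (y axes, left to right), with 1 point per sheep, coloured by diet and marked by replicate number. Well-fed sheep 8 lies at one end with 1804 CPM of spermatogonium and spermatocyte markers and underfed sheep 6 at the other with 378 CPM.

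The list of differentially expressed mRNAs was made on the contrast of diets, so the relation of its members to testicular traits among sheep of the same diet is a further measure. The list of pairs also used correlations with miRNA levels over the sheep, to which differences within a diet can contribute, and the slopes of its 4 members (KLHL24, FBXL13, FBXL5 and UBE2B) are therefore a description, also where these genes are counted with the others. Each trait was centred within its diet and divided by its SD within diets, and a slope is the log2 change per such SD. For testis weight, 0 of 34 members had an adjusted p-value under 0.1 with limma, adjusted over all 11148 genes, and 0 of 34 had an unadjusted p under 0.05, beside 2.39% of all genes. The test called 0.00897% of all genes, a single gene, and the edgeR quasi-likelihood test on the recovered reads called 0 genes and DESeq2 1 gene, with 0 members called by either. Slopes were above 0 for 20 of the 34 members, beside 53.8% of genes. The 5 members with the smallest p were FBXO9 with a slope of -0.18 ± 0.09 (SE, 16 sheep), FBXL19 with -0.24 ± 0.13, FBXO10 with -0.28 ± 0.15, USP11 with -0.30 ± 0.18 and USP44 with 0.23 ± 0.14, and the adjusted p of each was 1.00. Sperm number per testis gave 0 members past the adjusted threshold, beside 0% of genes, and 1 member with an unadjusted p under 0.05, beside 1.47% of genes. This member was UBE2B, which belongs to the list of pairs, with a slope of 0.34 ± 0.16. Tubule diameter, the volume of the seminiferous epithelium, the change of scrotal circumference and the number of apoptotic germ cells per tubule gave 0 members at an unadjusted p under 0.05, beside 0.26%, 0.807%, 0.206% and 1.02% of genes, and 0 members at an adjusted p under 0.1. Slopes above 0 were found for 20 members with sperm number, beside 51.5% of genes, for 21 with tubule diameter, beside 49.2%, and for 22 with epithelium volume, beside 53.6%. They were found for 23 with the change of scrotal circumference, beside 61.1% of genes, and for 25 with apoptotic germ cells, beside 48.9%.

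The signs of the slopes on testis weight followed the direction of the diet difference in well-fed sheep. All 14 higher members had slopes below 0, with a median of -0.51, and 19 of the 20 lower members had slopes above 0, with a median of 0.51, the exception being UBE2K at -0.03. Of the 16 lower members outside the list of pairs, 15 had slopes above 0. Of all genes with the same directions, 76.1% and 78% had slopes of these signs. Those genes had smaller diet differences, with median log2 fold changes of 0.38 and -0.35, beside 1.03 and -0.86 for the members. The sets are thus unlike, and genes with diet differences of like size were not counted. Well-fed sheep 8 and 2 were the sheep of their diet farthest from its median testis weight. Well-fed sheep 8 also held the extremes of most members. The signs in well-fed sheep were not counted without it, so its part in them was not tested. In underfed sheep 6 of 14 higher members lay below 0 and 13 of 20 lower members above 0, beside 44.2% and 57.3% of genes. Underfed sheep 8 had testes far heavier than the others of its diet, and without it all 14 higher members lay below 0 and all 20 lower members above 0, beside 75.9% and 75.4% of genes.

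**Figure D5:**
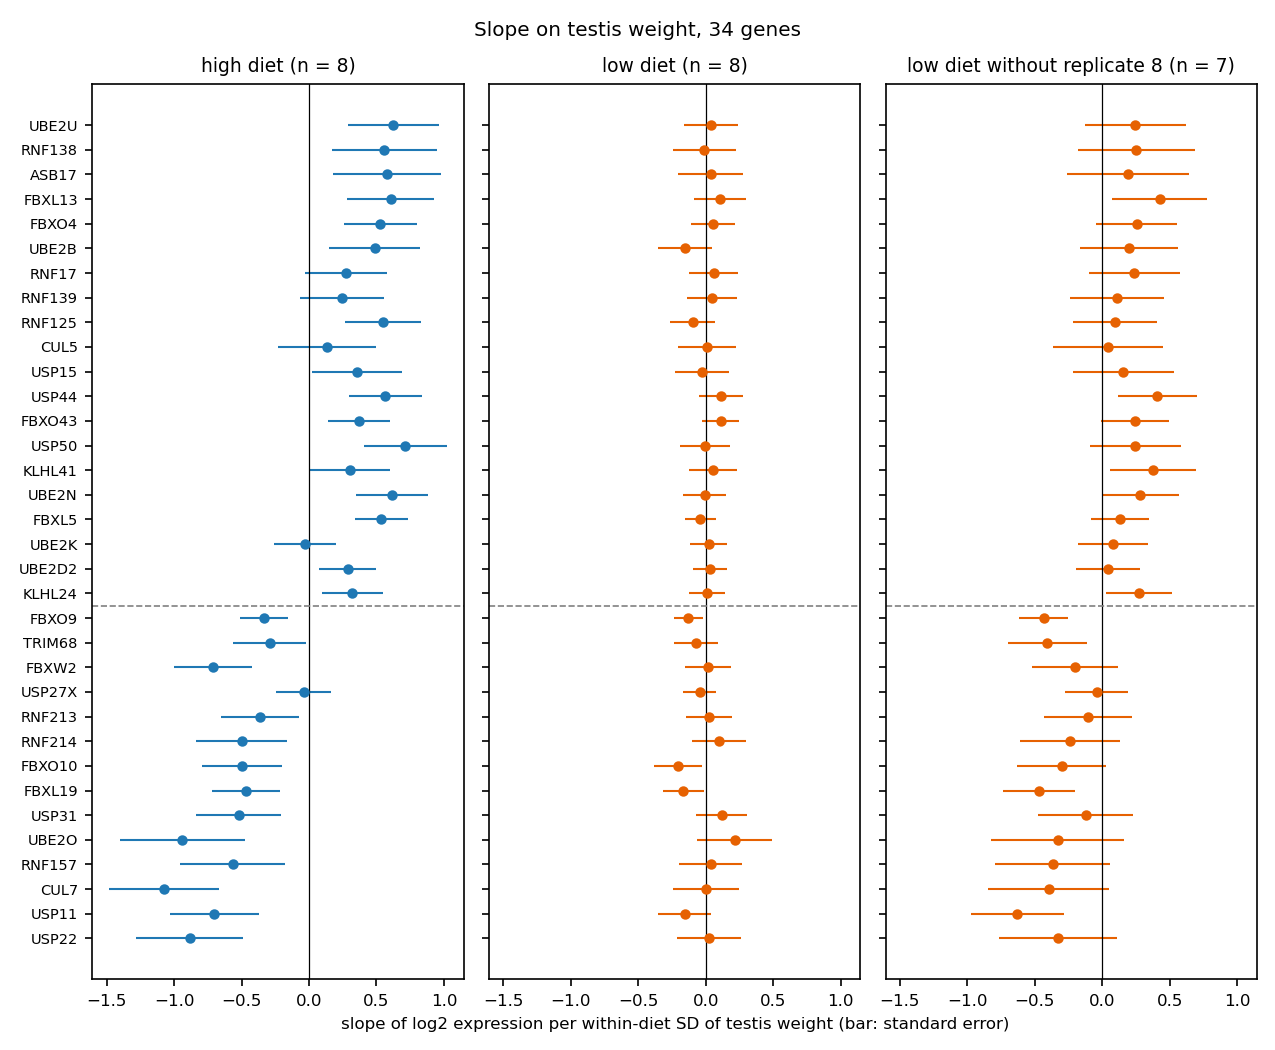
Slope of each member on testis weight (log2 per within-diet SD, bars for the standard error) in well-fed sheep, in underfed sheep, and in underfed sheep without sheep 8, with the lower members above and the higher members under the dashed line. In well-fed sheep the slopes run from -1.07 (CUL7) to 0.71, in all underfed sheep they lie between -0.21 and 0.21, and without sheep 8 they separate by direction again.

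Without underfed sheep 8, 11 of 34 members had an unadjusted p under 0.05 for testis weight within diet, beside 17.8% of the genes tested, and 0 members passed the adjusted threshold, the smallest adjusted p among members being 0.28 with limma. The slope of FBXO9 was then -0.38 ± 0.12, that of USP11 -0.67 ± 0.23, that of CUL7 -0.77 ± 0.30 and that of USP44 0.49 ± 0.19. These results depended on which sheep was left out. In the same fit without well-fed sheep 8, 0 members had an unadjusted p under 0.05 (limma), beside 216 of 11111 genes. Without well-fed sheep 8 and 2 and underfed sheep 8 and 1 it was 0 members, beside 66 of 10837 genes. With all 16 sheep, the difference of slopes between diets was called for 0 genes. In that fit 21.5% of genes and 4 members (FBXL5, CUL7, FBXW2 and UBE2O) had an unadjusted p under 0.05 (limma). The smallest adjusted p among members outside the list of pairs was 0.22 with limma, for CUL7, with a slope of -1.07 ± 0.41 in well-fed and 0.00 ± 0.24 in underfed sheep. For FBXL5, which is in that list, the slopes were 0.54 ± 0.20 and -0.04 ± 0.12. This test turned on single sheep. Without well-fed sheep 8, 0 genes were called and 0 members had an unadjusted p under 0.05 with limma. Without well-fed sheep 2, another sheep with heavy testes, 7 members (CUL7, UBE2O, USP50, USP44, FBXL5, RNF125 and USP11) passed the adjusted threshold with adjusted p from 0.069 to 0.093, beside 29.3% of genes called. Without underfed sheep 1, 1 member passed it, beside 8.67% of genes.

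Genes of the ubiquitin pathway outside these families were taken from lists by symbol, and 27 of them had an identifier in the supplementary lists, so that they share the choice on the diet contrast. Lower levels in underfed sheep were found for 20 of the 27, of which 5 were past both criteria, beside 10.9% of all genes below 0. Higher levels were found for 7, of which 7 were past both, beside 21.2% of all genes above 0. Nothing follows from these counts, or from those of the single lists, because of that choice. The E1 enzymes UBA2 and UBA3, which activate the ubiquitin-like proteins SUMO and NEDD8, and UBA6, which activates ubiquitin, had log2 fold changes of -0.71 ± 0.25, -0.69 ± 0.25 and -0.76 ± 0.26, and 0 of 3 was past both criteria. Of the cullin partners 4 were lower and 0 passed, the COP9 signalosome subunits COPS2 and COPS4 and the receptors DCAF13 and DCAF17, with log2 fold changes of -0.83 to -0.64.

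The proteasome list had 5 lower genes, of which 3 were past both criteria (10.9% of all genes below 0), and 2 higher genes, both past them (21.2% of all genes above 0). PSMA8, the alpha subunit of the proteasome of spermatocytes and spermatids, ranged from 50.5 to 127 CPM (median 89.0) in well-fed and from 25.7 to 75.5 CPM (median 55.7) in underfed sheep, a log2 fold change of -0.92 ± 0.25. PSMB9, a catalytic subunit of the immunoproteasome, ranged from 7.84 to 15.6 CPM (median 11.3) in well-fed and from 14.2 to 59.2 CPM (median 23.4) in underfed sheep, a log2 fold change of 1.00 ± 0.25. Other E3 enzymes and adaptors had 3 higher genes, all past both criteria beside the same 21.2% (PJA1 at 0.95 ± 0.20, HUWE1 at 0.87 ± 0.30 and TRAF7 at 0.83 ± 0.28 in log2 fold change), and 7 lower genes, of which 1 was past them, beside 10.9%. The shuttle proteins UBQLN2 and UBQLN4 had log2 fold changes of 1.49 ± 0.32 and 0.95 ± 0.32, and UBXN2A one of -0.85 ± 0.28.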

How the data were processed

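Testicular RNA of 16 Merino male sheep was sequenced from stranded mRNA libraries. Per the study's methods and the submitters' processing notes (CASAVA 1.8, TopHat2 2.0.10, HTSeq), the authors aligned reads to OAR3.1, counted them on Ensembl genes and deposited CPM values without a gene filter. All values were whole multiples of 1 read within 0.01 reads, so reads were recovered for the count tests. Columns of the authors' fold changes and p-values in the supplementary lists were not used, and neither were 245 rows that were not read. Trait values came from a supplementary table of the study.

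CPM was divided by the TMM factor, a pseudocount of 1 was added and log2 taken. Genes over 5 CPM in 8 or more libraries were fitted with limma 3.58.1 and its trend option in R 4.3.3, with Benjamini-Hochberg adjustment over all 11148 genes. Called genes had an adjusted p under 0.1 and, between diets, a ratio of mean CPM (without TMM factors) above 1.5. Trait fits held diet as a covariate. TMM factors and the quasi-likelihood test came from edgeR 4.0.16 and further count tests from DESeq2 1.42.0. Summaries used Python 3.11.15, pandas 2.3.3, numpy 2.4.6 and matplotlib 3.10.9. The fits were tested on simulated counts drawn independently for each gene. Such counts lack the variation among sheep that many genes share in these data, so the fits were not tested under it.

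Members and gene lists were chosen with earlier results of these data known. Members were named with their values if they were among the 3 with the largest change in each role and direction or the 5 with the smallest p for testis weight. All 34 symbols were found in the RefSeq gene table of sheep. Alternatives covered normalization, filter, pseudocount, test, threshold, trait scale, replicate number and each sheep left out.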

Additional observations from a re-analysis of the deposited data

Results flagged for a closer look

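Among 68 groups (34 members in 2 diets of 8 sheep), 5 had a highest sheep whose gap to the next, divided by the range of the group, exceeded Dixon's critical value for 8 samples at 95%. Chance flags about 1 in 20 groups. ASB17 stood at 434 CPM in well-fed sheep 8, with the next sheep at 252 CPM. RNF125 stood at 52.0 CPM in the same sheep, with the next at 34.5 CPM. UBE2D2 stood at 51.6 CPM in well-fed sheep 5, with the next at 38.9 CPM. FBXL13 stood at 139 CPM in underfed sheep 1, with the next at 78.3 CPM. USP44 stood at 443 CPM in the same underfed sheep, with the next at 263 CPM.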

How the results depend on the processing

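All 34 members kept the sign of their log2 fold change in every setting tried, with 14 higher and 20 lower. These were 544 values with 1 sheep left out and 272 under other settings that change the estimate. Nothing follows from the signs, because the members had been listed on this contrast in these same libraries. The number of members past both criteria was 20 (replicate block) to 27 (DESeq2) under other settings. By the adjusted p alone, without the ratio, 32 passed. The diet comparison called 1791 genes, 66.1% of them higher in underfed sheep. It called 2018 on library totals without TMM factors, which moved the median of all genes to 0.17 and the higher share to 77.5%, and 2388 with the adjusted p alone (50% higher), 1673 with edgeR and 2159 with DESeq2. With 1 sheep left out it called 667 to 2664 genes and 10 to 32 members. The number of called genes dropped more than 1.5 times below 1791 in these cases: 1033, 824, 931 and 863 without well-fed sheep 1, 5, 6 and 8, and 851 and 667 without underfed sheep 4 and 6, with 16, 13, 17, 14, 15 and 10 members.

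In the fit with replicate block the diet comparison called 1067 genes and 20 members, testis weight 0 genes, and the slopes on testis weight turned to 0.0795 for USP11 and -0.115 for USP44. Correlations of the deviations of same-numbered sheep ran from -0.63 to 0.70, 2 of 8 were over 0.1, and 1 of 16 libraries was closest to its own number. With 8 such correlations it cannot be decided whether the numbers pair the sheep, and the main fits assumed no pairing. Testis weight called 1 gene, and 0 with no filter, with a pseudocount of 5 CPM, with edgeR, with ranks of weight, and without the 2 sheep of each diet farthest from its median weight, and 0 to 1 with 1 sheep left out. The other traits called 0 genes, and 17 without a filter. The difference of slopes called 0 to 3251 genes with 1 sheep left out, the highest without well-fed sheep 2, and 961 genes and 1 member without underfed sheep 1. The causes of these shifts were not tested. Depth limits the lowest members most, UBE2O with 16 reads in 1 library, and 8 sheep per diet limit the slopes.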

Other observations

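Underfed sheep 7 split the lower members. Against the mean of the underfed sheep, 16 of the 20 lower members were below and 4 above on the log2 scale. The lowest were CUL5 at -1.72, RNF139 at -1.49, RNF138 at -1.12 and RNF17 at -1.02. The highest were USP50 at 0.98, UBE2N at 0.71 and KLHL41 at 0.64, and USP50 and UBE2N were higher in this sheep than in any other underfed sheep. These genes were chosen after their values were seen.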
